A study of Mus musculus with 8 samples.

Results

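The long noncoding RNAs described here are hosts of small nucleolar RNAs (snoRNAs): Gas5, Snhg1, Snhg3, Snhg4, Snhg5, Snhg6, Snhg8, Snhg12, Snhg15 and Snhg17. These 10 genes were taken by symbol from the 54532 genes of the count tables, and 9 of them had an identifier there, whereas Snhg4 was not analysed here. Snhg12 was chosen by its lower CPM (counts scaled to a common library total of 1000000) upon anti-IL-6R, so its values in that comparison are a description and carry no test. The cells were 4T1, a triple-negative breast cancer line from a spontaneous mammary tumour of a BALB/c mouse. Scramble cells carried a control shRNA, and shMCT-1 cells carried 1 shRNA against Mcts1, the gene of the translation reinitiation factor MCT-1. Both lines were stable transfectants selected with puromycin, and whether each was a clone or a pool was not given in the sources used here. Each line was cultured for 48 h with control IgG or with 100 ng/ml antibody against the mouse IL-6 receptor (anti-IL-6R), which gave 4 groups of 2 libraries (shMCT-1 or scramble cells, each + IgG or + anti-IL-6R). With 1 line for each shRNA, the knockdown and any other difference between the lines cannot be told apart. Nothing in the labels says that replicates came from separate cultures, so p-values measure the spread between these libraries.

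A snoRNA host gene is transcribed as a spliced RNA whose introns hold the snoRNAs. After splicing, the intron is trimmed down to the snoRNA, while the joined exons leave as the host RNA. The snoRNA is protected by its own proteins and guides the modification or processing of ribosomal RNA. Box C/D snoRNAs guide ribose methylation, and box H/ACA snoRNAs guide pseudouridylation. Many host transcripts begin with a 5′ terminal oligopyrimidine (TOP) tract, a cytosine followed by pyrimidines that ribosomal protein mRNAs share. Their short reading frames make many of them targets of nonsense-mediated decay (NMD), the translation-coupled pathway that removes RNAs with early stop codons, and Gas5 took its name from its accumulation in growth-arrested cells.

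The counts came from poly(A) libraries and held few reads of the snoRNAs themselves. In the annotation, merged exons filled the whole span of Snhg1 (2969 bases), Snhg12 (2402 bases) and Snhg8 (853 bases). At least for these hosts, spliced and unspliced RNA could not be told apart in the gene counts. Within the 9 hosts the annotation placed 33 snoRNA entries of 60 to 205 bases, 2 pairs of which overlapped each other. By their letters, 18 entries had the boxes of a C/D snoRNA (TGATGA near the 5′ end and CTGA near the 3′ end), 10 had the ACA of an H/ACA snoRNA near the 3′ end, and 5 matched neither. Over the 8 libraries these entries held 536 counts against 118173 counts for the hosts, which is 0.454%. Snhg3 was the exception, with 321 counts on Snora73a and Snora73b, 10.0% of the host count, and these are the longest entries. The levels of snoRNAs therefore could not be compared with those of their hosts. Gas5 (10 entries) and Snhg1 (8 entries) held most of the C/D snoRNAs, and Snhg17, Snhg8, Snhg15 and Snhg12 carried H/ACA snoRNAs.

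The snoRNAs inside the 3 hosts that differed between the lines (Snhg17, Snhg8 and Snhg15) and examples from Snhg12 are shown as annotated in GENCODE M21 (GRCm38), with the box letters in capitals.
Gm24411 in Snhg17 (chr2:158356424-158356554, minus strand): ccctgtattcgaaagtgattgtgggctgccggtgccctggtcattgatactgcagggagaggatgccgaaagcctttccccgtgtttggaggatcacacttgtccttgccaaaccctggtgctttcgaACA
Gm26003 in Snhg17 (chr2:158358360-158358472, minus strand): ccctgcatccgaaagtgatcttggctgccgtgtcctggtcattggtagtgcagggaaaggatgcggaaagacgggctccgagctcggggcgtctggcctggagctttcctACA
Gm23925 in Snhg17 (chr2:158359798-158359929, minus strand): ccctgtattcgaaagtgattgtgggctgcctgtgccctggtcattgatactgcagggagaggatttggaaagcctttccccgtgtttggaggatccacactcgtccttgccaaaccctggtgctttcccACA
Snora24 in Snhg8 (chr3:123507937-123508066, minus strand): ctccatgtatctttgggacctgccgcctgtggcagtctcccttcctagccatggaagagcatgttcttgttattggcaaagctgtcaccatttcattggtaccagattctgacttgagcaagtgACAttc
Snora9 in Snhg15 (chr11:6528033-6528165, minus strand): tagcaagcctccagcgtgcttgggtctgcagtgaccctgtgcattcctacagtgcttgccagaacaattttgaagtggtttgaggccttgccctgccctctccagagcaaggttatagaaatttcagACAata
Snora61 in Snhg12 (chr4:132310240-132310369, plus strand): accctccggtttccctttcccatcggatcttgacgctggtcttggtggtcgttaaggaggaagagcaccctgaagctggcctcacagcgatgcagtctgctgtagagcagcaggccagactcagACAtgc
Snord99 in Snhg12 (chr4:132310691-132310764, plus strand): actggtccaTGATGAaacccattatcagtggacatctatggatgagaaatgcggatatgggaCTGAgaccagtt
The 3 Snhg17 entries resembled each other. Gm24411 and Gm23925 differed by 8 single-base changes or gaps, whereas Gm26003 differed from them by 39 and 40. Each of these 3 entries had 1 count in all 8 libraries together.

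RefSeq promoters (GRCm38.p6) were found for 8 of the 9 measured hosts, all except Snhg6. The window shown runs from 45 bases before to 30 bases from the annotated start on the gene's strand, and capitals mark a TATANA match within 45 to 15 bases before the start and the longest run of a C with at least 4 further pyrimidines near it.
Gas5 (chr1:161035121-161035195, plus strand): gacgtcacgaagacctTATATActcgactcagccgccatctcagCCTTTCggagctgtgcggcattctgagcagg
Snhg12 (chr4:132308633-132308707, plus strand): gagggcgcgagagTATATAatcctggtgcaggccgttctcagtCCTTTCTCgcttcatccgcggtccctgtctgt
Snhg8 (chr3:123508307-123508381, minus strand): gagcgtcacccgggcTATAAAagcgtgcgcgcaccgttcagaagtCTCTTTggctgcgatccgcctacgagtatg
Snhg5 (chr9:88522868-88522942, minus strand): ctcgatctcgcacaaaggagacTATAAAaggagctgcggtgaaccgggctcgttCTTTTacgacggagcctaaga
Snhg15 (chr11:6528731-6528805, minus strand): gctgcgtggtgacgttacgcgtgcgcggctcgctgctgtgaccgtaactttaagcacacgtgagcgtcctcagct
Snhg17 (chr2:158361480-158361554, minus strand): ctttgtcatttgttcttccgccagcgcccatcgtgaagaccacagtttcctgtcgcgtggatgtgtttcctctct
Gas5 is shown at the downstream one of its 2 entries, and the other entry had no TATANA match, pyrimidine run or TGACG. A gene was counted if any of its entries had the motif. The pyrimidine run, searched on the gene's strand from 10 bases before to 15 bases after the start, was found in 5 of the 8 hosts (62.5%), in 34.4% of 27025 genes with a promoter entry and in 58.6% of 58 ribosomal protein genes. TATANA, searched on the gene's strand, was found in 4 of 8 hosts and in 4.06% of all genes. It was found in 14.3% of 28 other noncoding snoRNA hosts with a promoter entry. Its window was chosen after the values were seen, so nothing is read from these shares. In the 300 bases from 250 before to 50 after the start, TGACG on either strand was found in 4 of 8 hosts and 23.0% of genes, and CACGTG, which reads the same on both strands, in 1 host, Snhg15 (12.5% against 8.09% of genes). Each motif was counted on its own, whether or not it overlapped another. The 3 hosts that differed between the lines were mixed in this respect, since Snhg8 had both the TATANA match and the run and Snhg15 and Snhg17 had neither.

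The libraries held 19839293 to 33063575 counts, and the 4 shMCT-1 libraries (at most 23448590 counts) were all smaller than the 4 scramble libraries (at least 24100093 counts). Mcts1 itself was at 11.83 to 15.37 CPM in scramble and 4.917 to 6.704 CPM in shMCT-1 libraries (log2 fold change −1.10, SE 0.116, edgeR quasi-likelihood adjusted p = 1.13e-05). The epithelial keratin Krt8 was at 1031 to 1429 CPM, and the T cell and stromal markers Cd3e and Lum were at 0 in all libraries. Other markers of such cells were not absent. Cd68, a macrophage marker, was at 2.656 to 3.342 CPM in scramble and 5.418 to 7.51 CPM in shMCT-1 libraries, the endothelial Cdh5 was at 0 to 0.1245 and 0.4536 to 1.457 CPM, and the fibroblast marker Pdgfra was at 10.89 to 16.67 CPM over all libraries. Their part in the differences of the hosts was not tested. Epcam, another epithelial marker, was at 3.75 to 4.928 CPM in scramble and 49.44 to 54.46 CPM in shMCT-1 libraries, so the lines differed well beyond the hosts. Between shMCT-1 and scramble across both treatments, 69% of 12704 genes tested had an adjusted p under 0.05.

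All 9 hosts passed the filter on low counts, since each exceeded 1 CPM in all 8 libraries, and they had 188 to 5274 counts in a library. Levels between genes were compared as CPM per kb of merged exons, averaged over the 8 libraries. For Snhg1, Snhg8 and Snhg12 this length is the whole gene span. Snhg8 was highest at 68.8 CPM per kb, with a range of 54.6 to 86.5 over the libraries. It was followed by Snhg1 at 47.0 (35.2 to 63.3), Gas5 at 42.0 (32.2 to 58.8) and Snhg5 at 35.4 CPM per kb (29.6 to 40.7). A lower set held Snhg12 at 17.2 (13.9 to 26.4), Snhg3 at 15.9, Snhg15 at 15.3, Snhg6 at 10.2 and Snhg17 at 10.1 CPM per kb. The ranges of neighbours in this order overlapped everywhere except between Snhg5 and Snhg12. With the longest transcript as the length, Snhg8 stayed first at 75.6 CPM per kb, Gas5 moved to the second place at 61.8 and Snhg15 to the fifth at 30.7.

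**Figure D1:**
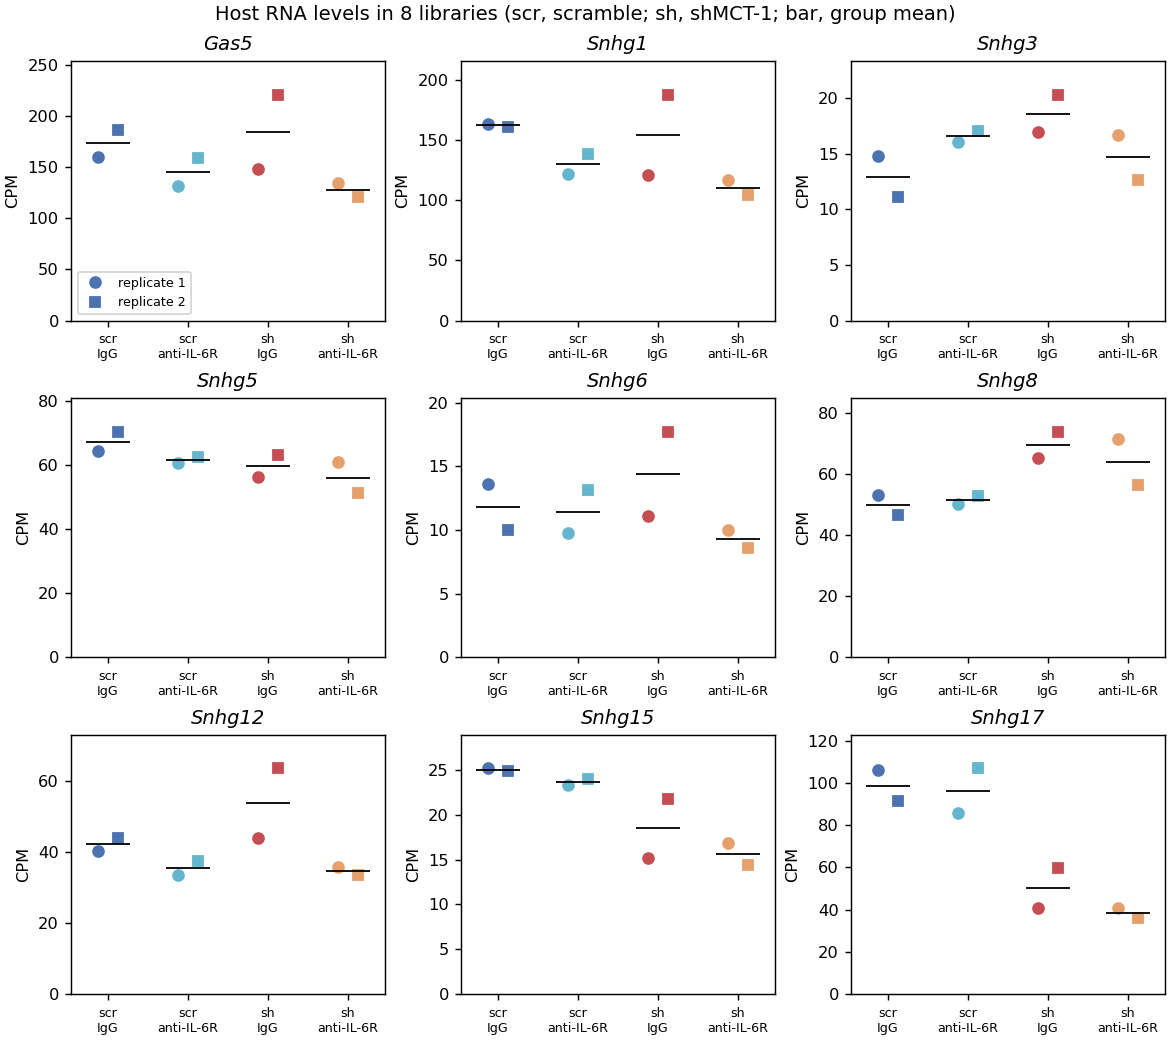
CPM (linear y axes from 0, different for each gene) of the 9 measured hosts in the 4 groups, with circles for replicate 1, squares for replicate 2 and bars for the mean of the 2 libraries. Snhg17 and Snhg15 are lower and Snhg8 is higher in all 4 shMCT-1 libraries than in all 4 scramble libraries, and replicate 2 of shMCT-1 + IgG lies above replicate 1 in every panel.

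The first comparison asked how the hosts differed between shMCT-1 and scramble cells. Across both treatments, Snhg17 and Snhg15 fell and Snhg8 rose, and the other 6 hosts did not pass the test. Thus 1 of 9 was called higher and 2 of 9 lower, against a background of 35% of all tested genes higher and 34% lower. In RNA of whole cultures, fewer cells with a transcript and less of it per cell cannot be told apart. The median log2 fold change of the 9 hosts was 0.00, against 0.01 over all tested genes. Fewer of the hosts were called than of genes at large, and no test was made of that difference.

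Snhg17, the host of the 3 similar H/ACA snoRNAs printed above, showed the clearest difference. It was at 106.2 and 91.2 CPM in scramble + IgG and 85.7 and 106.9 CPM in scramble + anti-IL-6R. The shMCT-1 libraries were at 40.87 and 59.45 CPM with IgG and 40.83 and 35.97 CPM with anti-IL-6R. The highest shMCT-1 library was thus below the lowest scramble library. The log2 fold change across both treatments was −1.10 (SE 0.127, edgeR adjusted p = 2.20e-05), which is 46.7% of the scramble level. It was −0.93 within IgG (SE 0.172, edgeR adjusted p = 0.00147) and −1.27 within anti-IL-6R (SE 0.174, edgeR adjusted p = 0.000287). Snhg17 lies on chromosome 2 (158353700 to 158361580, minus strand, GRCm38), where the 1000 tested genes had a median log2 fold change of −0.37, and the 14 tested genes within 1 Mb had a median of −0.28. Measured from these medians, Snhg17 was lower by a log2 value of −0.73 and −0.82, and the part of the region in its difference was not tested.

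Snhg15, the host of the H/ACA snoRNA Snora9, was also lower in shMCT-1 cells, by less. Its scramble libraries were close together, at 25.21 and 24.94 CPM with IgG and 23.33 and 24.01 CPM with anti-IL-6R. The shMCT-1 libraries were at 15.24 and 21.84 CPM with IgG and 16.89 and 14.43 CPM with anti-IL-6R. All 4 were below the scramble libraries, and replicate 2 of shMCT-1 + IgG came nearest to them. The log2 fold change across both treatments was −0.47 (SE 0.106, edgeR adjusted p = 0.00247). It was called within anti-IL-6R (−0.54, SE 0.156, edgeR adjusted p = 0.0150) and missed the threshold within IgG (−0.39, SE 0.154, edgeR adjusted p = 0.0547). Without replicate 2 of shMCT-1 + IgG, the value within IgG was −0.68 with an edgeR adjusted p of 0.00784. Within anti-IL-6R the call was lost without either scramble library or without replicate 2 of shMCT-1 (edgeR adjusted p of 0.0513, 0.0689 and 0.0889), and across both treatments it was kept with each library left out (−0.59 to −0.38).

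Snhg8, the host of Snora24 and the most abundant of the 9 per kb, was the 1 host called higher. Its scramble libraries were at 53 and 46.6 CPM with IgG and 50.18 and 52.81 CPM with anti-IL-6R. The shMCT-1 libraries were at 65.08 and 73.78 CPM with IgG and 71.47 and 56.36 CPM with anti-IL-6R, all above the scramble libraries. The log2 fold change across both treatments was 0.45 (SE 0.0861, edgeR adjusted p = 0.000840). It was 0.52 within IgG (SE 0.125, edgeR adjusted p = 0.00586) and 0.37 within anti-IL-6R (SE 0.125, edgeR adjusted p = 0.0303). Within IgG the call was lost without replicate 2 of shMCT-1 + IgG (0.43, edgeR adjusted p = 0.0564), and within anti-IL-6R it was lost without either scramble library or without replicate 1 of shMCT-1 (edgeR adjusted p of 0.144, 0.0983 and 0.175). The call across both treatments was kept with each library left out (log2 fold change 0.39 to 0.53).

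An exact two-sided permutation test over the 8 libraries, on log2(CPM + 1), gave p = 0.0286 for Snhg8, Snhg15 and Snhg17, the smallest value that the 70 arrangements of 4 against 4 libraries can give. The separation of the libraries fixes this value, which is not adjusted for the 9 tests made and adds nothing to the separation. The same exact permutation test gave p = 0.143 to 0.943 for the other 6 hosts. Over all genes, CPM was lower in all 4 shMCT-1 libraries for 34.2% and higher in all 4 for 29.9%, so such a separation was common between these lines.

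**Figure D2:**
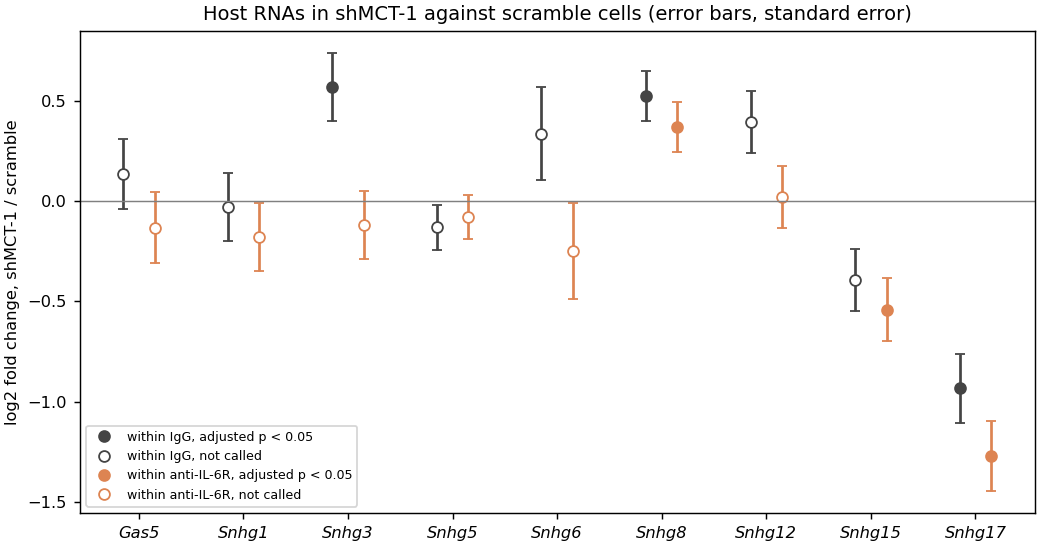
Log2 fold change, shMCT-1 over scramble (y axis), for each host (x axis), within IgG (dark) and within anti-IL-6R (orange), with the standard error as bars and filled points for an adjusted p under 0.05. Snhg17 lies near −1 in both treatments, Snhg8 is above 0 in both, and Snhg3 is called within IgG only, where its value is 0.57 against −0.12 within anti-IL-6R.

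Within IgG, 3 of 9 hosts were called (54.4% of all genes), 2 of them higher (28.3% of all genes) and 1 lower (26.1% of all genes). The second host called higher was Snhg3, which carries the long H/ACA snoRNAs Snora73a and Snora73b. Snhg3 was at 14.79 and 11.08 CPM in scramble + IgG and at 16.93 and 20.3 CPM in shMCT-1 + IgG (log2 fold change 0.57, SE 0.169, edgeR adjusted p = 0.0172). With anti-IL-6R the groups overlapped, at 16.06 and 17.06 CPM in scramble and 16.73 and 12.66 CPM in shMCT-1 cells (log2 fold change −0.12, SE 0.168, edgeR adjusted p = 0.572). The call within IgG was lost without replicate 2 of scramble + IgG (0.39, edgeR adjusted p = 0.113) and without replicate 2 of shMCT-1 + IgG (0.43, edgeR adjusted p = 0.135). Snhg3 overlaps the same-strand gene Rcc1, a regulator of the GTPase Ran, over 5592 bases, and the opposite-strand noncoding gene Gm17300. How reads were shared between such genes and whether strand was used in counting were not given in the sources used here, so the Snhg3 values are uncertain in this respect. Rcc1 was at 138.9 to 180.1 CPM in scramble and 165.4 to 192.1 CPM in shMCT-1 libraries (log2 fold change 0.11, SE 0.0764, edgeR adjusted p = 0.210).

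Within anti-IL-6R, 3 of 9 hosts were called (54.3% of all genes), 1 higher (26.9% of all genes) and 2 lower (27.3% of all genes), namely Snhg8, Snhg15 and Snhg17 again. The remaining hosts did not pass the test across both treatments. Snhg5, the host of the C/D snoRNAs Snord50a and Snord50b, ranged from 60.8 to 70.46 CPM in scramble and 51.26 to 63.03 CPM in shMCT-1 libraries (log2 fold change −0.11, SE 0.0733, edgeR adjusted p = 0.219). Gas5 had a log2 fold change of 0.00 (SE 0.124), Snhg1 of −0.10 (SE 0.116) and Snhg6, the host of Snord87, of 0.05 (SE 0.182). For Gas5 the opposite-strand gene Zbtb37 overlapped 428 bases and was itself lower in shMCT-1 cells (log2 fold change −0.61, SE 0.115, edgeR adjusted p = 0.000704), at 5.746 to 12.85 CPM over all libraries against 121 to 221 CPM for Gas5. Snhg6 overlapped the opposite-strand gene Mcmdc2 over 127 bases, and Mcmdc2 had at most 0.3269 CPM. Snhg12 was at 0.21 across both treatments (SE 0.118, edgeR adjusted p = 0.136) and at 0.39 within IgG (SE 0.154, edgeR adjusted p = 0.0520), where it shares the IgG libraries with the comparison it was chosen by. These values were 0.05 and 0.10 without replicate 2 of shMCT-1 + IgG, and without replicate 1 the value within IgG was 0.64 (edgeR adjusted p = 0.00521). Without replicate 1 of scramble + IgG, the value across both was 0.14.

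Genes that work with the hosts or their snoRNAs were taken from lists chosen with earlier results known. Their counts stand against 35% of all tested genes higher and 34% lower, and nothing particular to a list is read from them. Of the 4 C/D core proteins, Snu13 rose (log2 fold change 0.40, SE 0.0607) and Nop56 fell (−0.22, SE 0.0575). Of the 4 H/ACA core proteins, 2 rose, Nhp2 (0.62, SE 0.102) and Nop10 (0.44, SE 0.120), and none fell. Of 10 snoRNP assembly factors 5 rose, among them Nufip1 (0.41) and Znhit6 (0.62), which help to join the C/D core proteins to the snoRNA, and 1 fell. The medians of these 3 lists were 0.11, 0.27 and 0.22, against 0.01 over all genes.

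Of 10 NMD factors, 1 rose (10%) and 3 fell (30%), the latter near the background of 34%. Smg1, the kinase that phosphorylates UPF1, went from 180.4 ± 7.98 to 77.9 ± 14.1 CPM (SD, n = 4 libraries in each line; log2 fold change −1.16, SE 0.111, edgeR adjusted p = 5.75e-06). Upf2 also fell (−0.69, SE 0.0982, edgeR adjusted p = 0.000103) and Smg9 rose (0.46, SE 0.0616). Of 6 TOP regulators and mTORC1 genes, 1 rose, the translation repressor gene Eif4ebp1 (0.39, SE 0.0773), and 3 fell, among them the kinase genes Mtor (−0.53, SE 0.0823) and Rps6kb1 (−0.28, SE 0.0781). Of 5 genes of the exon junction complex, which marks spliced RNA for NMD, 2 rose, Eif4a3 (0.46) and Rbm8a (0.31), and 1 fell, Magohb (−0.24). Of 10 ribosome biogenesis and RNA polymerase I genes 3 rose, among them Bop1 (0.46) and Pes1 (0.38), and 2 fell, among them Polr1b (−0.76). Of the 4 reinitiation factors, Denr, which encodes the partner of MCT-1 (0.88, SE 0.0877), and Eif2d (0.67, SE 0.0562) rose, and Mcts1 and its retrogene Mcts2 (−1.14, SE 0.0711) fell.

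Ribosomal protein genes share the pyrimidine run with several hosts. Of 78 such genes 67 rose and 1 fell, with a median log2 fold change of 0.55. Of 198 tested protein-coding genes that hold snoRNAs, 70 rose and 68 fell, with a median of 0.01, as over all genes. Of 16 tested noncoding hosts outside the 9, 4 rose and 6 fell, with a median of −0.32. They include Cct6a, a chaperonin subunit gene that the annotation types as a processed transcript, and without it 3 of 15 rose and 6 fell, with a median of −0.36. The 2410006H16Rik RNA was at 0.95 (SE 0.139, edgeR adjusted p = 0.000122), AI506816 was at −2.61 (SE 0.202, edgeR adjusted p = 1.31e-06), and Zfas1, a host of C/D snoRNAs, was at 0.03 (SE 0.159, edgeR adjusted p = 0.867).

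**Figure D3:**
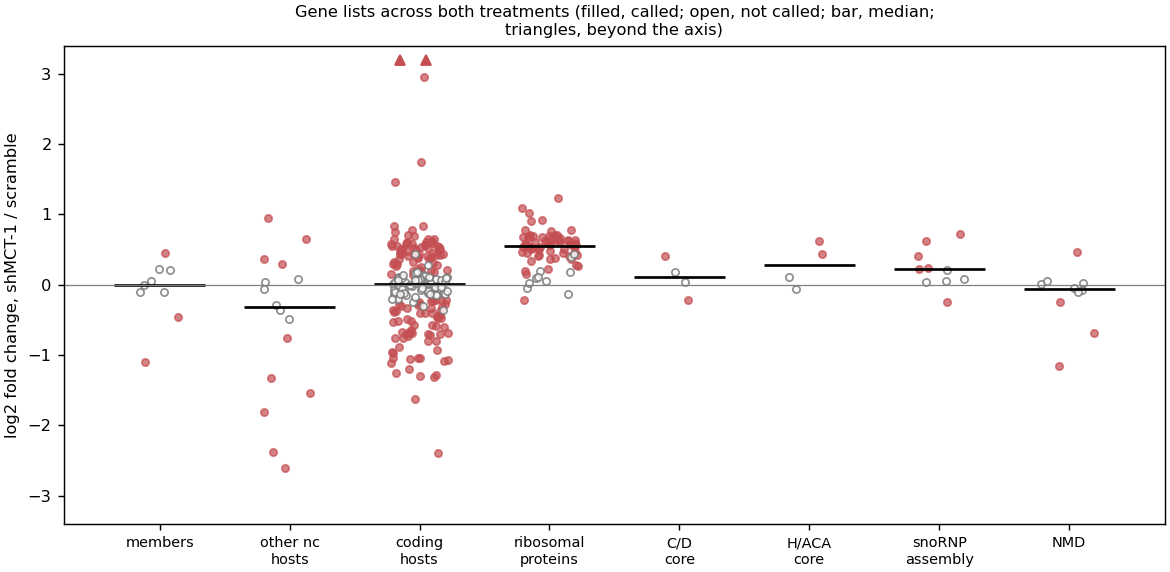
Log2 fold change, shMCT-1 over scramble, across both treatments (y axis) for each tested gene of 8 lists (x axis; "members" are the 9 measured hosts, nc is noncoding), with filled points for an adjusted p under 0.05, bars for medians and triangles for genes beyond the axis. The ribosomal protein genes centre on 0.55, whereas the 9 hosts centre on 0.00.

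The second comparison asked how the hosts differed between anti-IL-6R and IgG in each line. With edgeR, 0 of 12704 genes were called in scramble, in shMCT-1 cells or across both backgrounds (0% in each), so none of the 8 hosts tested was called. An unadjusted p under 0.05 was held by 166 genes (1.31%) in scramble, 505 (3.98%) in shMCT-1 cells and 357 (2.81%) across both. DESeq2 called 0, 11 and 1 genes in these 3 comparisons, and edgeR's exact test on the 4 libraries of each line called 10 in scramble and 14 in shMCT-1 cells. The study reported more genes with edgeR for anti-IL-6R in each line, and the reason for the difference was not tested. Among the 8 hosts, 0, 3 and 2 had an unadjusted p under 0.05, all of them lower.

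Snhg12, the host of Snora16a, Snora44, Snora61 and Snord99, was chosen for its lower level upon anti-IL-6R and is described without a test. In scramble cells it was at 40.32 and 43.73 CPM with IgG and 33.41 and 37.26 CPM with anti-IL-6R. In shMCT-1 cells it was at 43.8 and 63.42 CPM with IgG and 35.59 and 33.33 CPM with anti-IL-6R. All 4 libraries with anti-IL-6R were below all 4 with IgG, and the 2 shMCT-1 + IgG libraries were far apart. Of all genes 0.244% were separated in this way, a share from which nothing can be read for a gene chosen by this difference. The log2 fold change was −0.26 (SE 0.154) in scramble, −0.63 (SE 0.156) in shMCT-1 cells and −0.44 (SE 0.118) across both. Without replicate 2 of shMCT-1 + IgG, the value in shMCT-1 cells was −0.34 and that across both was −0.29. With another library left out, they were as low as −0.88 and −0.51. Both shMCT-1 comparisons of Snhg12 use the same shMCT-1 + IgG libraries.

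Gas5 and Snhg1, the hosts with the most C/D snoRNAs, were also lower with anti-IL-6R in each line, without passing the test. Gas5 was at 160.7 and 186.7 CPM in scramble + IgG and 131.8 and 159.5 CPM in scramble + anti-IL-6R. It was at 148.9 and 221 CPM in shMCT-1 + IgG and 134.6 and 121 CPM in shMCT-1 + anti-IL-6R. The libraries with anti-IL-6R were below those with IgG within each line, in scramble by little, and across the lines the values overlapped. The log2 fold change of Gas5 was −0.26 (SE 0.174) in scramble, −0.53 (SE 0.175) in shMCT-1 cells and −0.40 (SE 0.124) across both, with edgeR adjusted p-values of 1.00, 1.00 and 0.995.

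Snhg1 was at 163.5 and 161.4 CPM in scramble + IgG and 122.2 and 138.6 CPM in scramble + anti-IL-6R. It was at 121.2 and 187.9 CPM in shMCT-1 + IgG and 117 and 104.4 CPM in shMCT-1 + anti-IL-6R. The gap in shMCT-1 cells between the nearest libraries was thus small, and the wide one was in scramble. The log2 fold change of Snhg1 was −0.33 (SE 0.170) in scramble, −0.48 (SE 0.171) in shMCT-1 cells and −0.40 (SE 0.116) across both, with edgeR adjusted p-values of 1.00, 1.00 and 0.995. Apart from Snhg12, Gas5 and Snhg1 were the 2 of 8 hosts whose libraries with anti-IL-6R were below those with IgG in each line, against 2.53% of all genes. Both followed Snhg12 over the same libraries (r = 0.917 and 0.804) and each other (r = 0.941). They are thus not separate from the choice of Snhg12, and nothing is read from this share. The values across both backgrounds were −0.24 for Gas5 and −0.25 for Snhg1 without replicate 2 of shMCT-1 + IgG. They were as low as −0.48 and −0.50 with another library left out. In scramble, Gas5 was at −0.13 without replicate 2 of IgG and at −0.14 without replicate 1 of anti-IL-6R.

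Snhg12 is left out of the counts that follow, since it was chosen by this comparison. Some of the other hosts follow its profile over the same libraries, so these counts are still not independent of that choice. In shMCT-1 cells alone, 5 of 8 hosts had both libraries with anti-IL-6R below both with IgG (17.3% of all genes), and in scramble 4 of 8 had (13.4% of all genes). All 8 hosts had a log2 fold change below 0 in shMCT-1 cells (52.2% of all genes), with values from −0.64 in Snhg6 to −0.09 in Snhg5. These values share replicate 2 of shMCT-1 + IgG, the highest shMCT-1 library in every host. Without it, Gas5 went from −0.53 to −0.21, Snhg1 from −0.48 to −0.12 and Snhg6 from −0.64 to −0.26. Snhg17 went from −0.38 to −0.08, and Snhg15 was at 0.04. With another library left out, the values moved the other way. They were as low as −0.79 in Gas5, −0.76 in Snhg1, −0.93 in Snhg6 and −0.63 in Snhg17. The 4 hosts separated in scramble do not rest on replicate 2 of shMCT-1 + IgG, but 3 of them were separated by little. The nearest IgG and anti-IL-6R libraries were at 160.7 and 159.5 CPM in Gas5, 64.26 and 62.46 in Snhg5, and 24.94 and 24.01 in Snhg15. The median log2 fold change of the 8 hosts in scramble was −0.07, Snhg3 went the other way, and 0 of 8 had an unadjusted edgeR p under 0.05.

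**Figure D4:**
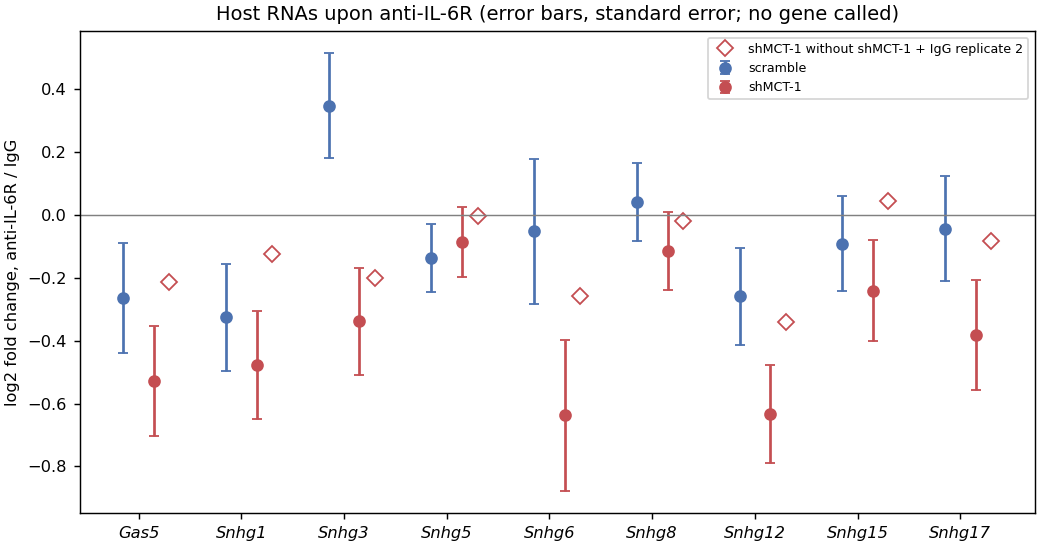
Log2 fold change of anti-IL-6R against IgG (y axis) for each host (x axis) in scramble (blue) and shMCT-1 cells (red), with the standard error as bars; open diamonds give shMCT-1 cells without replicate 2 of shMCT-1 + IgG. The red points are all below 0, and the diamonds lie closer to 0 than the red points for every host. Values with other libraries left out are not shown.

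Snhg3 went in opposite directions in the 2 lines upon anti-IL-6R. In scramble cells both libraries with anti-IL-6R (16.06 and 17.06 CPM) were above both with IgG (14.79 and 11.08 CPM), and in shMCT-1 cells both (16.73 and 12.66 CPM) were below both with IgG (16.93 and 20.3 CPM). The log2 fold changes were 0.35 (SE 0.167) and −0.34 (SE 0.170). The interaction, which tests the difference of these values, was −0.69 (SE 0.239, edgeR adjusted p = 1.00), and it was not called. With edgeR, 0 of 12704 genes were called in the interaction (0%), whereas 315 had an unadjusted p under 0.05 and DESeq2 called 6.

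Over all genes the 2 replicates differed most in scramble + IgG, with a chi-square of the counts per tested gene of 27.69. That value was 18.35 in shMCT-1 + anti-IL-6R, 9.785 in shMCT-1 + IgG and 4.345 in scramble + anti-IL-6R. In each of the 9 hosts, replicate 2 of shMCT-1 + IgG was the highest shMCT-1 library, in Snhg5 and Snhg8 by little. In CPM, all 9 hosts were higher in it than in replicate 1, by 1.12 to 1.60 times with a median of 1.45 times. The median over all tested genes was 0.999. Which of the 2 libraries of this group was unusual cannot be told from the pair. Of all genes, 49.6% were higher in replicate 2. Of the 16 other noncoding hosts 14 were higher in replicate 2, with a median ratio of 1.38 (13 of 15 and 1.41 without Cct6a, described above), and 866 noncoding genes that hold no snoRNA had a median ratio of 1.14. The 198 protein-coding hosts had a median ratio of 0.994 and the 78 ribosomal protein genes of 1.06. The medians were thus highest among the noncoding hosts, and the protein-coding hosts lay at about the median of all genes. The noncoding genes that hold no snoRNA varied widely, with quartiles of 0.911 and 1.55. The median of the 9 hosts lay between these quartiles.

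The other groups differed in this respect. In shMCT-1 + anti-IL-6R all 9 hosts were lower in replicate 2 (median ratio 0.858), where 52.1% of all genes were higher (median ratio 1.01) and 2 of the 78 ribosomal protein genes were higher (median ratio 0.876). In scramble + anti-IL-6R all 9 hosts were higher in replicate 2 (median ratio 1.12), as were 53.3% of all genes. There the noncoding genes that hold no snoRNA had a median ratio of 1.14, so that shift was not particular to the hosts. In scramble + IgG 3 of 9 hosts were higher (median ratio 0.987), while the ribosomal protein genes had a median of 0.788.

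**Figure D5:**
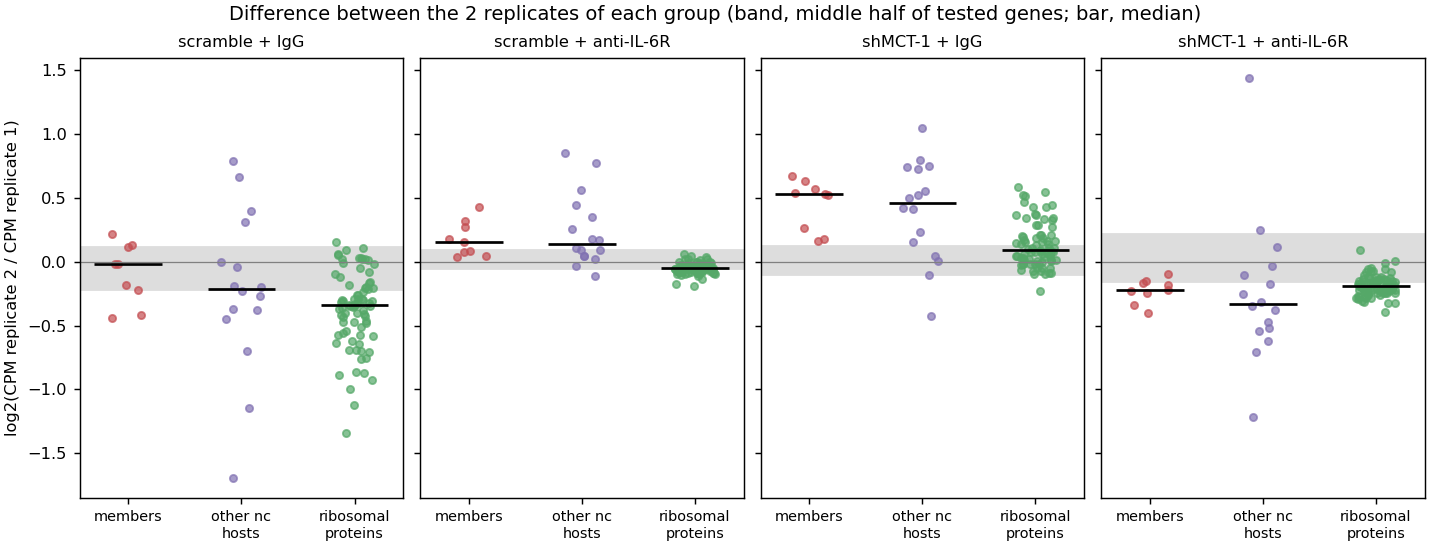
Log2 ratio of CPM in replicate 2 to replicate 1 (y axis) in each group (panels), for the 9 hosts, the 16 other noncoding (nc) hosts and the 78 ribosomal protein genes, with bars for medians and a grey band from the lower to the upper quartile of all tested genes. The 9 hosts lie above 0 in both scramble + anti-IL-6R and shMCT-1 + IgG and below 0 in shMCT-1 + anti-IL-6R.

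The likeness of profiles over the 8 libraries was described by Pearson's r of log2 CPM, where all points share the same libraries and depths. Gas5 and Snhg1 followed each other (r = 0.941), and so did Snhg15 and Snhg17 (r = 0.948), which were both low in shMCT-1 cells. Snhg8 and Snhg17 went against each other (r = −0.697). Snhg12 followed Gas5 (r = 0.917) and Snhg1 (r = 0.804), and had an r of −0.03 with Snhg17. Snhg12 and Snhg3 lie 36989 bases apart on chromosome 4, and their r was 0.446.

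Among all tested genes outside the 9, those most like Snhg12 were Spice1 (r = 0.946), Rprd1a (r = 0.927), Ube2v2 (r = 0.920), Mycbp (r = 0.914) and Gm17300 (r = 0.913), the noncoding gene opposite to Snhg3. Spice1 was at 8.464 and 8.921 CPM in scramble + IgG, 7.872 and 7.833 CPM in scramble + anti-IL-6R, 8.376 and 9.723 CPM in shMCT-1 + IgG and 8.115 and 7.466 CPM in shMCT-1 + anti-IL-6R. It was thus highest in the same library as Snhg12, over a narrower range. Gm17300 was at 11.48 and 11.29 CPM with IgG and 7.36 and 9.527 CPM with anti-IL-6R in scramble, and at 10.48 and 14.5 against 7.41 and 7.876 CPM in shMCT-1 cells. All 4 of its libraries with anti-IL-6R were below all 4 with IgG, as in Snhg12 and Spice1. Nothing can be read from this, since both genes were picked by likeness to Snhg12, itself chosen by that difference.

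Among the genes most like the mean profile of the 9 hosts were Spata24 (r = 0.961), Zfas1 (r = 0.960), Atg9b (r = 0.946) and Rsrp1 (r = 0.943). Zfas1 is itself a snoRNA host outside the 9. It was at 68.44 and 58.51 CPM in scramble + IgG, 57.06 and 60.94 CPM in scramble + anti-IL-6R, 57.53 and 95.4 CPM in shMCT-1 + IgG and 51.77 and 43.34 CPM in shMCT-1 + anti-IL-6R. Replicate 2 of shMCT-1 + IgG was the highest library of Spata24, Zfas1, Atg9b and Rsrp1 alike, in Atg9b by little. Spata24 had at most 1.962 CPM. Since all were picked by likeness to the mean of the hosts, this shared peak is no separate result.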

How the data were processed

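Poly(A) RNA of 4T1 cells was measured in 8 libraries. The authors trimmed reads (cutadapt 1.18), aligned them (STAR 2.7.0d, mm10) and deposited RSEM expected counts per gene. Removal of duplicates by molecular identifier and strand in counting were not given in the sources used here. Here, expected counts were rounded to whole numbers (28.4% of values above 0 were not whole), and CPM is the rounded count scaled by the library total. Identifiers were matched to GENCODE M21 without version (54495 of 54532), and promoters to RefSeq GRCm38.p6. The 12704 genes above 1 CPM in 2 or more libraries were tested with edgeR 4.0.16 (TMM, glmQLFit and glmQLFTest, Benjamini-Hochberg over all tested genes, adjusted p under 0.05). Comparisons within a treatment or line and the interaction came from a fit of the 4 group means, and those across both from a fit with line and treatment as terms. SE is the log2 fold change divided by the square root of F. Library totals of 19839293 to 33063575 counts gave each host 188 counts or more in every library. The code was tested on simulated data. Alternatives were other scalings and filters, DESeq2 1.42.0, edgeR's exact test, thinning, a replicate block and each library left out. The 10 genes and the lists were chosen with earlier results of these data known. Named genes were all measured hosts, at most 3 genes of each list by the smallest adjusted p across both treatments, the 5 genes with profiles most like Snhg12 and like the mean of the hosts, genes overlapping a host, and Mcts1. Some genes that this rule names are not reported here. The noncoding hosts 2410006H16Rik and Zfas1, and the TATANA window, were chosen after their values were seen.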

Additional observations from a re-analysis of the deposited data

Results flagged for a closer look

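Snhg3 differed in direction between the lines upon anti-IL-6R, with both libraries above those with IgG in scramble and both below in shMCT-1 cells. The test of that difference, the interaction, gave a log2 value of −0.69 (SE 0.239, edgeR adjusted p = 1.00) and was not called. Leaving out each library in turn gave −0.90 to −0.47.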

How the results depend on the processing

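The calls of Snhg8, Snhg15 and Snhg17 across both treatments were kept in every alternative with a test. The hosts called lower within IgG went from 1 to 2, with Snhg15 as the second, under RLE size factors, without a filter, with a 7-library filter (above 1 CPM in 7 or more), with thinned libraries, with DESeq2 and with edgeR's exact test. Without a filter, the hosts called lower went from 0 to 3 for anti-IL-6R in shMCT-1 cells (Gas5, Snhg1 and Snhg6, edgeR adjusted p of 0.00199, 0.0124 and 0.0224) and from 0 to 2 across both backgrounds (Gas5 and Snhg1), and those called higher across both treatments went from 1 to 2, with Snhg12. Over all genes this alternative called 64, 128, 76 and 92 for anti-IL-6R in scramble, in shMCT-1 cells, across both backgrounds and in the interaction, against 0 in each with the filter, and the cause was not tested. DESeq2 called 0, 11, 1 and 6 in these comparisons, and edgeR's exact test 10 and 14 in the lines.

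With 1 library left out, where the lone library is assumed to vary like the other groups, the hosts called higher within IgG numbered 0 to 3 and lower 1 to 3, those within anti-IL-6R 0 to 1 and 1 to 2, and those across both treatments 1 to 2 and 2 to 3. For anti-IL-6R and the interaction 0 hosts and 0 to 14 genes were called with any 1 library left out, and within anti-IL-6R 4389 genes were called without replicate 2 of scramble against 6895. Without replicate 2 of shMCT-1 + IgG, 0 hosts were higher and 3 lower within IgG, and Snhg1 was called lower across both treatments (−0.26, edgeR adjusted p = 0.0160). Without replicate 2 of shMCT-1 + anti-IL-6R, Snhg3 was called higher across both treatments (0.37, edgeR adjusted p = 0.0225). Gas5, near 0 across both treatments, changed sign under RLE (−0.0118), without a filter (−3.6e-05), with the 7-library filter (−0.0177) and with DESeq2 (−0.0121), and was at −0.152 to 0.0828 with a library left out, while Snhg6 was at −0.167 to 0.190.

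Same-numbered libraries did not deviate together (r of −0.08 to 0.11 between groups). With 2 libraries in each group this cannot exclude that the numbers pair the samples, and the labels do not say so. A fit with the replicate block called 7035 and 7017 genes within IgG and within anti-IL-6R, against 6911 and 6895, and 0 for anti-IL-6R, and it made 3 hosts higher within IgG. The third was Snhg12 (0.38, edgeR adjusted p = 0.0365). It was also called there with upper quartile factors (0.0321), without a filter (0.00565), with filterByExpr (0.0432) and with DESeq2 (adjusted p = 0.0388). These calls use the IgG libraries that Snhg12 was chosen by, so no conclusion is drawn from them. Its value within IgG was 0.10 without replicate 2 of shMCT-1 + IgG and 0.64 without replicate 1. Within anti-IL-6R it was 0.02 (SE 0.156).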
